A study of Mus musculus with 18 samples.

Results

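DNA methylation on the autosomes was compared between mouse induced pluripotent stem cells (iPSC) and mouse embryonic fibroblasts (MEF), the cell type from which such stem cells are commonly made. The iPSC group held 2 samples, labelled iPS and female. The MEF group held 4 samples, labelled MEF and female. A further pair of groups served as a comparison with no shared library: male embryonic stem cells (ESC, n = 2) and male MEF (n = 2). The labels name cell type and sex only. They give no strain, passage, clone or reprogramming agent, so nothing says whether both iPSC samples came from 1 line, and p-values rest on a sample-to-sample spread that may be technical. The series has 18 samples in 7 groups, and its title names X chromosome reactivation during reprogramming. All were profiled by reduced representation bisulfite sequencing (RRBS), which cuts DNA with a restriction enzyme, retains short fragments rich in CpG, and tells methylated cytosines by their resistance to bisulfite.

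The unit of comparison was the tile, a fixed window of 1 kb with at least 3 CpGs of 5 or more reads in each of the 6 samples, with both strands of a CpG added. There were 55967 autosomal tiles, of 58492 with the X included, against 33545 tiles readable in all 18 samples of the series. A tile's level is its percentage of methylated reads. Differences are in percentage points, iPSC minus MEF, between the means of the sample levels. A tile was called lower or higher at an adjusted p under 0.05 (quasi-binomial model with limma-type moderation, Benjamini-Hochberg over all tiles) and a difference of at least 20 points.

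In mammals, cytosine methylation sits mostly at CpG pairs. CpG-rich promoters are usually free of it, while most other CpGs, including those of transposon copies, carry it. A small set of promoters, many of them of genes used in the germ line, is methylated in somatic cells such as fibroblasts. Reprogramming to pluripotency resets part of this pattern, and female mouse pluripotent lines are known for low methylation genome-wide.

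The files hold no gene names, and the gene table uses another build. RefSeq promoter sequences (GRCm38.p6, 250 bases before to 50 after the start site) were therefore placed in the deposited mm9 coordinates by the spacing of their CpGs alone. Of 15982 promoters with at least 8 CpGs, 7173 had a single best exact place, and 7170 of these fell on the chromosome that the table gives, although no table coordinate was used. In all, 5361 gene symbols had a placed promoter in 4860 tested autosomal tiles, each taken as the tile with most of its CpGs. Promoters with few CpGs could not be placed, so what follows is about CpG-rich promoters.

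The sequences below are promoters whose tile was lower in iPSC. They are shown because these germ-line genes had large losses, and the capitals mark the CpGs with 5 or more reads in at least 1 of the 6 samples. A tile's values rest on these CpGs where they lie in it, and on others in its remaining bases. Mael lies at chr1:168168826-168169125, Ddx4 at chr13:113442469-113442768, Slc25a31 at chr3:40512543-40512842 and Hsf5 at chr11:87430416-87430715 (mm9, from the match). Mael and Ddx4 are on the minus strand, the others on the plus strand.
Mael: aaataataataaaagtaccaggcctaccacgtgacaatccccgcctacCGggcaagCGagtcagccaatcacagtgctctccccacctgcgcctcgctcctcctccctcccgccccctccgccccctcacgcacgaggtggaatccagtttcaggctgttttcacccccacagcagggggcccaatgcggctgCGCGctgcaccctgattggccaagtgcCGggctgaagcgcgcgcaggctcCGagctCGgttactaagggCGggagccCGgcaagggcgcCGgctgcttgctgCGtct
Ddx4: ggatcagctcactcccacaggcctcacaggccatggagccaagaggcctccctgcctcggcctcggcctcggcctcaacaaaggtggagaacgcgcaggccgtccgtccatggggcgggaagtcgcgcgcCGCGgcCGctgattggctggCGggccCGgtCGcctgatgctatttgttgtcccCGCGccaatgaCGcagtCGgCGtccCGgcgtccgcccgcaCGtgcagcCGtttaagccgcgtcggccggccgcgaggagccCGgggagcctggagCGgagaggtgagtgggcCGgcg
Slc25a31: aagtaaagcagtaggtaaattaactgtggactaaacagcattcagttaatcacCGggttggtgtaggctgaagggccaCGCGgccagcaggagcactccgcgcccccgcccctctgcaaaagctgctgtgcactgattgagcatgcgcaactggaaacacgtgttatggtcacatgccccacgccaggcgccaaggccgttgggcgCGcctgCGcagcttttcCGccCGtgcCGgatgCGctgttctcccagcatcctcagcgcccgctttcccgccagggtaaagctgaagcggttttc
Hsf5: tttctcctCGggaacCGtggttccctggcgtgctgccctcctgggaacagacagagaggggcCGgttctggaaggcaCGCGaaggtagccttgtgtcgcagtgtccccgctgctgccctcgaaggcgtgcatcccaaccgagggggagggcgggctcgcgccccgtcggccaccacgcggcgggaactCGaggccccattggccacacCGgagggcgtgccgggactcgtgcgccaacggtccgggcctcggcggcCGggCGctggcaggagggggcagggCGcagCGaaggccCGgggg

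Tex101, at chr7:25457020-25457319 on the minus strand, is a germ-line promoter that was not called, shown for contrast.
Tex101: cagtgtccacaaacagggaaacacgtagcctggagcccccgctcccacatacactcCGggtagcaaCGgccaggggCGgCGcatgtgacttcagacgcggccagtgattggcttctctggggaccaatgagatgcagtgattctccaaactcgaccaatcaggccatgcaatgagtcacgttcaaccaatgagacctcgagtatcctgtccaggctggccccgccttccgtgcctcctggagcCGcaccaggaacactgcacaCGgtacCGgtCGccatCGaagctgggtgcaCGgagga

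Traip, at chr9:107853044-107853343 on the plus strand, and Lhx3, at chr2:26062046-26062345 on the minus strand, are promoters whose tile was higher in iPSC.
Traip: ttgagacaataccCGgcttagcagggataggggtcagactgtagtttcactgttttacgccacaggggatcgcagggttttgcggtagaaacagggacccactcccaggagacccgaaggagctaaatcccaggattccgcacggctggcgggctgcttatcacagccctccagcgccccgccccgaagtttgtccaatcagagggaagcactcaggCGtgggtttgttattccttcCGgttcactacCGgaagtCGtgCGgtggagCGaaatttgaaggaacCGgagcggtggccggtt
Lhx3: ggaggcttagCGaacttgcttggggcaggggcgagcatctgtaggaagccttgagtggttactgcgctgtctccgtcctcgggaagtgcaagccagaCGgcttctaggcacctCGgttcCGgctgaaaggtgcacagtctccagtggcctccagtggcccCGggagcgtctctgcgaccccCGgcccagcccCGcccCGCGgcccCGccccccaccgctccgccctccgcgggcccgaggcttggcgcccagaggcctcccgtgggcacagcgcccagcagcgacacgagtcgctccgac

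Total reads over CpGs were 31492063 and 34513354 in the iPSC samples, against 17366454, 15691149, 42185360 and 46130295 in MEF 1 to 4. The MEF libraries were of different kinds. In iPSC 1 and 2, 7.25% and 7.35% of CpGs were read on both strands, against 11.5%, 15.9%, 7.33% and 7.46% in MEF 1 to 4, so MEF 3 and 4 match the iPSC libraries. Correlations of log2 reads per tile between iPSC and MEF 3 or 4 were 0.758 to 0.800, against 0.368 to 0.487 between iPSC and MEF 1 or 2. MEF 3 and 4 differed by 20 points or more at 0.218% of tiles, and MEF 1 and 2 at 4.78%. Values against MEF 3 and 4 alone are called library-matched. The median tile held 177 and 199 reads in iPSC and 93, 74, 267 and 299 in MEF 1 to 4.

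The autosomes as a whole were less methylated in iPSC. Over 370745 CpGs read in all 6 samples, the mean level was 47.2% and 46.1% in iPSC, against 57.5%, 56.8%, 58.8% and 58.7% in MEF. The groups did not overlap, with 46.7% ± 0.791 (SD, n = 2) in iPSC and 58.0% ± 0.951 (SD, n = 4) in MEF. The difference was -11.3 points (exact permutation test, 2-sided p = 0.0667, the smallest that the 15 relabellings of 2 against 4 samples can give). Over each sample's own CpGs, which differ between libraries, the mean levels were 46.9% and 45.2% in iPSC against 47.8%, 44.0%, 58.0% and 57.6% in MEF. There the difference was -5.77 points (exact permutation test, 2-sided p = 0.333), and MEF 1 and 2 overlapped with iPSC. Highly methylated tiles were far fewer in iPSC. Tiles of 80% or more were 11.4% and 9.14% of all tiles in iPSC, against 39.98%, 38.6%, 42.2% and 42.1% in MEF. Tiles under 20% were 34.8% and 35.6% of tiles in iPSC, against 33.8%, 34.2%, 32.4% and 32.5% in MEF.

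Losses outnumbered gains. Of the 55967 tiles, 13576 (24.3%) were lower in iPSC and 2002 (3.58%) were higher. The median difference over all tested tiles was -6.70 points. On the 19 autosomes, lower tiles were 20.3 to 27.4% of tested tiles and higher tiles 2.77 to 5.05%, so both kinds were spread over the genome. Against the library-matched MEF, 12726 of the lower tiles (93.7%) and 1661 of the higher tiles (83.0%) were called again. At a minimum of 10 reads per CpG, 29721 tiles were left, with 6057 (20.4%) lower and 913 (3.07%) higher.

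**Figure D1:**
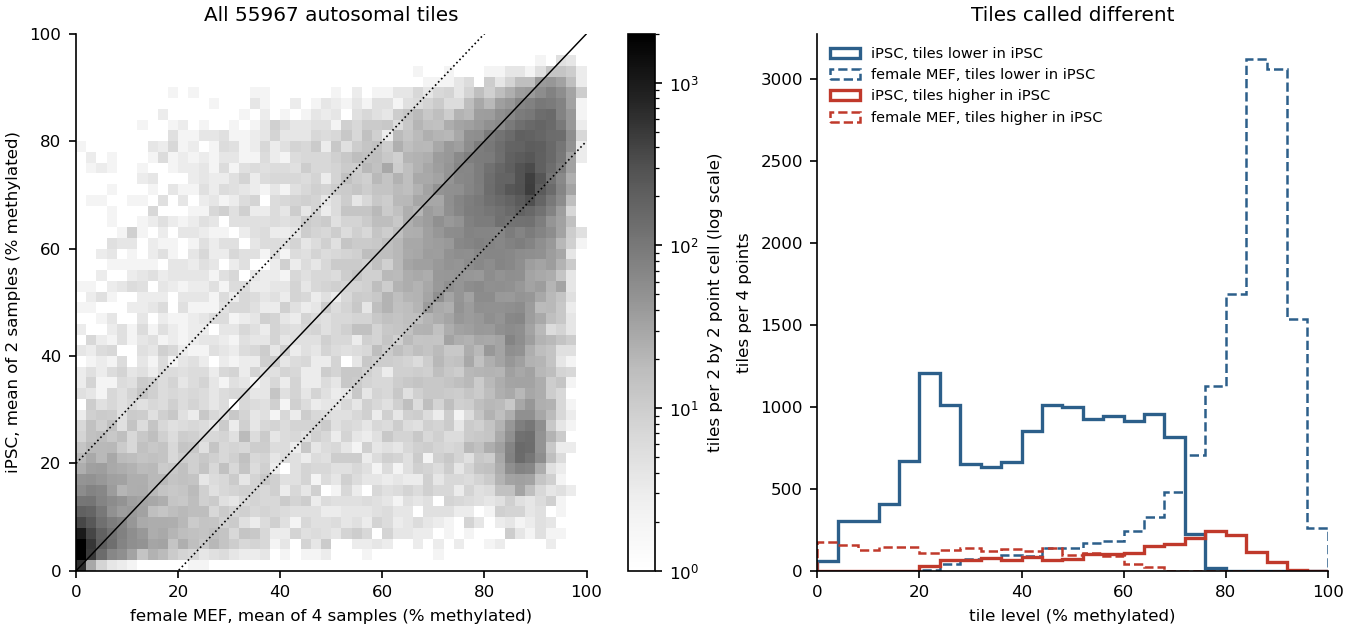
Left, the level of every autosomal tile in iPSC (vertical axis, %) against MEF (horizontal axis, %), shaded by the number of tiles on a log scale, with dotted lines 20 points from equality. Right, the levels of called tiles in iPSC (solid) and MEF (dashed). The lower tiles have a median of 44.1% in iPSC and 85.8% in MEF, and the iPSC levels have a peak between 20 and 30% in addition to a broad spread.

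Lower tiles were highly methylated in MEF and of intermediate level in iPSC. Their median level was 44.1% in iPSC (quartiles 25.6 and 58.0%), against 85.8% in MEF (78.5 and 89.6%). In iPSC, 12.9% of them were under 20%, 65.6% lay between 20 and 60%, and 21.6% were at 60% or more. An intermediate level cannot tell part of the cells from part of the copies in each cell. The difference was 40 points or more at 5493 of them. At 99.3% of lower tiles, both iPSC samples were below all 4 MEF samples. Of these tiles 9674 (71.3%) had 80% or more in MEF. Of all 22818 tiles with that MEF level, 42.4% were called lower, and the 13144 not called had a median of 76.4% in iPSC against 87.9% in MEF.

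Higher tiles were different in kind. Their median level was 68.0% in iPSC (quartiles 50.4 and 78.3%) and 28.2% in MEF (13.1 and 44.0%). Of these tiles 752 (37.6%) had under 20% in MEF, and 561 differed by 40 points or more. Most were poor in CpGs: 85.4% had 3 to 9 CpGs read in any of the 18 samples, against 62.7% of lower tiles and 57.4% of all tested tiles. Among tiles of 20 to 40% in MEF, 26.2% were higher and 12.3% lower. Among tiles of 40 to 60% in MEF, 19.1% were higher and 24.6% lower. Thus the tiles of intermediate level in fibroblasts went in both directions.

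Just inside the limit of 20 points stood 3212 lower tiles with differences under 25 points, and just outside it 5056 tiles passed the p threshold with 15 to 20 points. For higher tiles these counts were 526 and 684.

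Called tiles had called neighbours. Of tested tiles next to a lower tile, 70.8% were lower too, against 19.9% of all tiles with a tested neighbour. For higher tiles the values were 25.1% and 1.94%. A lower tile adjoined a higher one in 13 of 9682 neighbouring pairs. Neighbouring tiles can share DNA fragments and are not independent. Runs of called tiles with gaps of at most 2 kb, single tiles included, numbered 11867 for lower and 1915 for higher tiles. Of these, 10371 and 1841 were single tiles, and 152 and 10 held 3 or more tiles.

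The longest runs of losses lay close together on chromosome 8. In chr8:126123001-126142000 (mm9), 12 of 16 tested tiles were lower. The mean level over all 16 was 16.7% and 15.05% in iPSC, against 36.1%, 38.6%, 54.8% and 55.4% in MEF 1 to 4. In chr8:126063001-126079000, 10 of 15 were lower, with means over all 15 of 17.8% and 16.97% in iPSC against 38.2%, 40.4%, 50.2% and 50.8% in MEF. In both, all MEF samples were above both iPSC samples, and the library-matched MEF stood highest. The longest runs of gains were shorter. In chr11:95003001-95012000, 5 of 7 tiles were higher, with means over all 7 of 39.9% and 41.8% in iPSC against 13.9%, 14.4%, 15.04% and 13.8% in MEF. In chr4:153844001-153849000, 4 of 4 were higher, with 76.1% and 76.2% in iPSC against 36.4%, 33.7%, 39.8% and 39.0% in MEF.

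Placed promoters mostly were unmethylated in both cell types. Of the 4860 promoter tiles, 98.1% had under 20% in MEF, 28 (0.576%) were lower in iPSC and 33 (0.679%) were higher, against 24.3% and 3.58% of all tiles. The few promoters methylated in fibroblasts mostly lost methylation. Of 36 promoter tiles with 40% or more in MEF, 23 were lower and 0 higher (limma also called 0 higher, and 1 had a positive difference at an unadjusted p under 0.05), and of 12 with 80% or more, 10 were lower. Of all 35036 tiles with 40% or more in MEF, 37.9% were lower. Higher tiles were 19.1% of all tiles of 40 to 60% in MEF, 0.699% at 60 to 80% and 0% at 80% or more. Gains are thus rare at high MEF levels in any tile, and the 0 among 36 is not a result about promoters. Of the 13 promoter tiles not called, 4 (Parn, Nob1, Col6a5 and Plekhg4) were lower against the library-matched MEF. Parn had 50.8% and 56.3% in iPSC against 8.87%, 5.52%, 97.7% and 93.5% in MEF, so the MEF libraries lay on both sides of iPSC. The library-matched comparison called all 28 lower promoter tiles again. On CpGs read in all 6 samples 17 of the 21 testable ones were called again, and without MEF 3 it was 24 of the 28.

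Levels of tiles around placed start sites followed the same form. Within 1 kb downstream of a start site the median tile level was 3.86% in iPSC and 0.735% in MEF, and 0.939% of 4047 tiles were lower. At 1 to 2 kb downstream 14.4% were lower, at 2 to 3 kb 29.7%, and at 3 to 4 kb 38.1%, with a median of 40.7% in iPSC and 71.4% in MEF in that last bin. On the upstream side the share was 17.1% at 1 to 2 kb and 23.4% at 2 to 3 kb. Beyond 10 kb from any placed start site it was 27.7%. The share of higher tiles stayed between 0.855% and 4.57% in every bin.

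**Figure D2:**
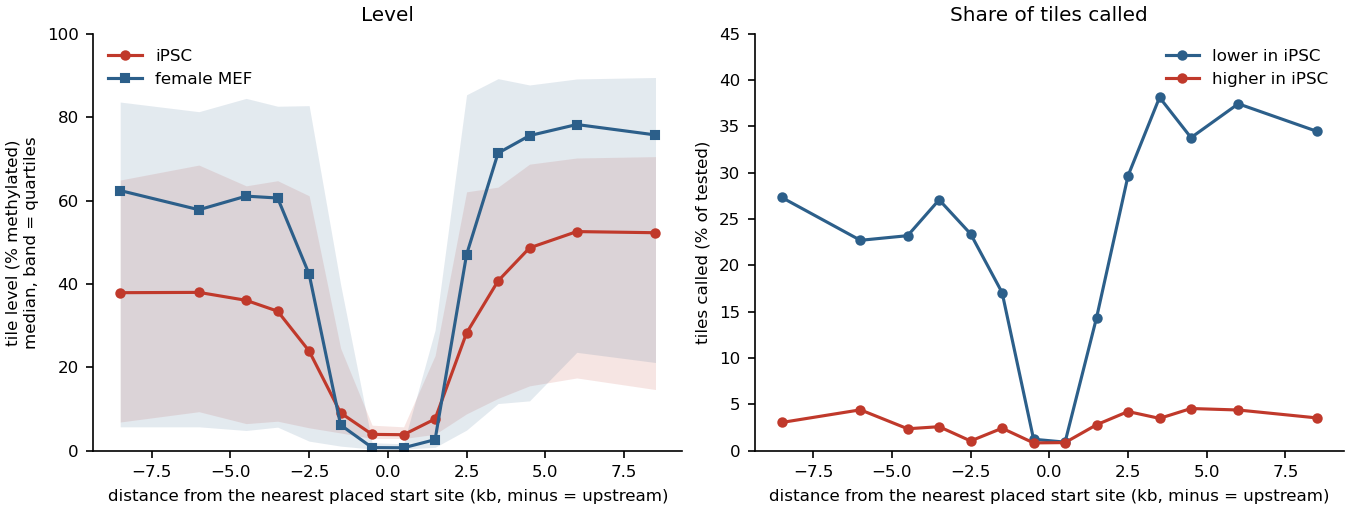
Tile level (left, median with quartile bands, %) in iPSC and MEF, and the share of tested tiles called lower or higher in iPSC (right, %), by distance of the tile centre from the nearest placed start site in kb. Both cell types are near 0 at the start site, with 3.86% in iPSC and 0.735% in MEF in the first kb downstream, and they part from 2 kb outward.

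A list of 18 germ-line genes, made from textbook knowledge but with earlier results of these data known, could be followed in part. Of its members, 5 had a placed promoter in a tested tile, of which 4 were lower (Mael, Slc25a31, Sycp1 and Ddx4), 0 were higher, and 1 (Tex101) was not called. The median difference over the 5 was -46.3 points, against 2.81 over promoter tiles and -6.70 over all tiles. These 5 are among the 36 promoter tiles of 40% or more in MEF, of which 23 were lower. Of a list of 20 pluripotency genes, 3 were tested and none was called: Tfcp2l1, Klf4 and Fgf4 had mean levels of 8.29%, 3.15% and 2.28% in iPSC and 2.10%, 0.337% and 0.967% in MEF. Of 20 fibroblast genes, Twist2 alone was tested, and it was not called, with 14.5% in iPSC and 5.49% in MEF. The other members of these lists were not analysed here, so the labels could not be checked by marker genes beyond these.

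Mael encodes Maelstrom, which takes part in transposon silencing in germ cells. Its tile had 17.3% and 17.2% in iPSC, against 89.9%, 85.7%, 72.6% and 73.9% in MEF. The difference was -63.3 points (adjusted p = 1.08e-06), and 6 of the 7 CpGs read in all samples were lower in both iPSC samples than in every MEF sample. Ddx4, the germ-cell RNA helicase also called Vasa, had 26.6% and 19.4% in iPSC, against 69.9%, 59.1%, 73.1% and 75% in MEF. Slc25a31, the ADP/ATP carrier of the testis, had 36.3% and 28.0% in iPSC, against 96.0%, 86.5%, 83.4% and 84.5% in MEF. Sycp1, a protein of the synaptonemal complex that joins chromosomes in meiosis, had 49.7% and 45.4% in iPSC, against 78.8%, 95.2%, 85.9% and 79.5% in MEF. Only 1 CpG of the Sycp1 tile was read in all 6 samples, with a difference of -16.5 points, against -37.3 for the tile. Of the CpGs read in all samples, 2 of 2 in Ddx4 and 4 of 4 in Slc25a31 were lower. In all 4 genes every MEF sample was above both iPSC samples. For Tex101, a surface protein of germ cells, the values were 75.6% and 73.4% in iPSC and 89.7%, 88.9%, 92.9% and 94.7% in MEF. It passed the p threshold (adjusted p = 4.11e-05) with a difference of -17.1 points, short of 20.

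The largest losses at promoters outside that list were at CN725425, a gene given no role here, with 10.8% and 18.0% in iPSC against 97.7%, 88.7%, 91.8% and 96.7% in MEF. Hsf5, a heat shock factor of spermatocytes, followed with 11.6% and 10.7% in iPSC against 88.1%, 84.8%, 84.2% and 83.1% in MEF. In both tiles every MEF sample was at 83.1% or more. Naa11, a testis paralogue of an N-terminal acetyltransferase, shares its tile with 4930467D21Rik. It had 16.7% and 27.1% in iPSC against 94.6%, 94.3%, 95.2% and 95% in MEF. Zglp1, a GATA-like zinc finger protein of the gonads, had 28.6% and 28.5% in iPSC against 84.0%, 98.0%, 84.9% and 85.9% in MEF. Dmrtb1, a transcription factor of male germ cells, had 34.8% and 35.1% in iPSC against 90.2%, 90.2%, 93.4% and 88.3% in MEF, and all 10 of its CpGs read in every sample were lower. The differences of these 5 tiles ran from -79.3 to -55.6 points.

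Several promoters were partly methylated in MEF and low in iPSC. Boll, a germ-cell RNA-binding protein, had 13.8% and 10.8% in iPSC against 35.3%, 41.0%, 48.3% and 49.1% in MEF. Hormad2, a protein of meiotic chromosomes, had 16.8% and 16.8% in iPSC against 49.0%, 41.0%, 57.9% and 56.2% in MEF. Smc1b, a meiotic cohesin subunit whose tile also holds the start of Ribc2, had 13.6% and 10.8% in iPSC against 39.2%, 17.5%, 51.5% and 56.4% in MEF. Sox30, a transcription factor of spermatogenesis, had 6.72% and 9.16% in iPSC against 25.9%, 24.2%, 35.8% and 31.2% in MEF. At Smc1b and Sox30 the library-matched MEF were the most methylated. For Sox30 the difference of -21.3 points fell short of 20 on CpGs shared by all samples (-14.7), with reads per CpG capped at 50 (-19.4) and without MEF 3 (-19.2). Imprinted genes, which are methylated on 1 parental copy, were among these too. Igf2r had 6.40% and 5.98% in iPSC against 42.1%, 24.0%, 23.1% and 30.9% in MEF, and without MEF 1 its difference was -19.8 points. Mcts2 had 7.96% and 23.0% in iPSC against 44.5%, 36.7%, 42.7% and 50.1% in MEF. The shared tile of Plagl1 and Hymai had 11.1% and 19.4% in iPSC against 37.6%, 38.6%, 42.1% and 43.4% in MEF, although none of the 3 CpGs read there in all 6 samples was apart, and on those CpGs the difference was -18.7 points.

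Some losses concerned genes with no germ-line role. Lep, which encodes the fat cell hormone leptin, had 48.9% and 46.7% in iPSC against 76.9%, 85.8%, 78.1% and 76.4% in MEF. Agpat2, an enzyme of triglyceride synthesis, had 27.1% and 20.5% in iPSC against 49.8%, 51.8%, 53.8% and 57.7% in MEF. Plin5, a lipid droplet protein, had 17.1% and 21.1% in iPSC against 25.4%, 16.98%, 59.6% and 67.3% in MEF. For Plin5 the groups overlapped, and the difference of -23.2 points was lost by limma (adjusted p = 0.169), with the replicate block (adjusted p = 0.656), with reads capped, and without MEF 3 or MEF 4.

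**Figure D3:**
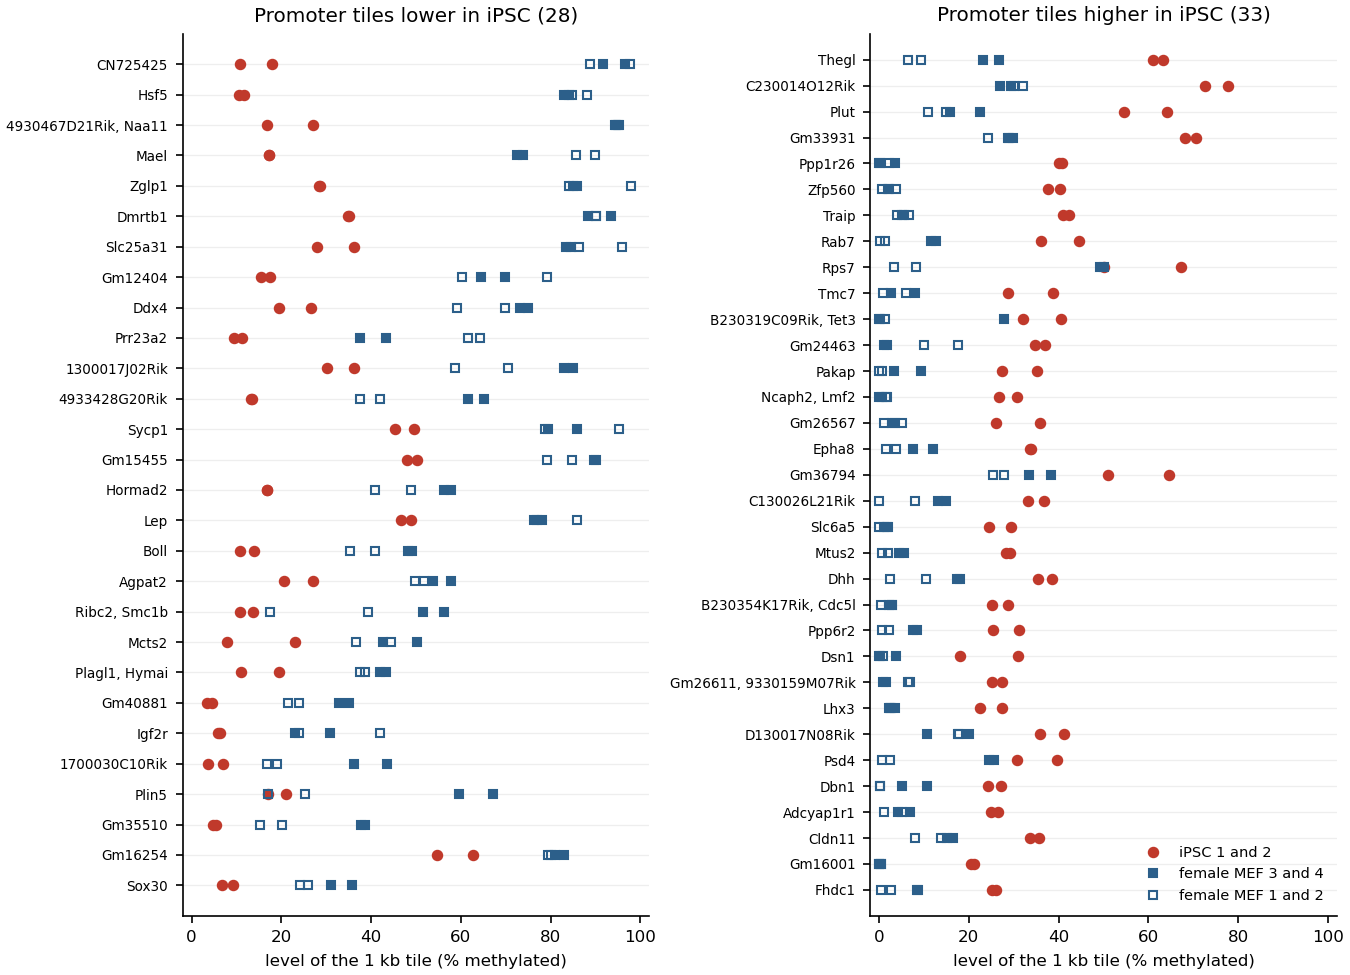
Level (%) of the 28 promoter tiles lower in iPSC (left) and the 33 higher in iPSC (right), with iPSC as circles and MEF as squares, filled for the library-matched MEF 3 and 4. The iPSC points lie left of the MEF points for all lower tiles but that of Plin5, and 29 of the 33 higher tiles have a MEF mean under 20%.

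Gains at promoters were of 20.5 to 45.7 points, and most started from low levels. The 33 higher promoter tiles had mean levels of 20.9 to 75.3% in iPSC (median 34.6%) and 0.231 to 31.3% in MEF (median 5.07%), and 29 of them had under 20% in MEF. The iPSC libraries had a higher floor: at 7946 tiles of at most 1% in both male MEF, the median level was 3.39% and 3.62% in iPSC, against 0.325%, 0%, 0.734% and 0.794% in MEF. With this floor taken out of the difference, 26 of the 33 were called again. The library-matched comparison called 27 again. In 21 of the 33 the tile could also be formed from CpGs read in all 6 samples, and 20 were called on those CpGs alone.

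Traip, a ubiquitin ligase acting at stalled replication forks, had 41.0% and 42.4% in iPSC against 6.60%, 3.96%, 5.11% and 5.52% in MEF. The difference was 36.4 points (adjusted p = 1.94e-07), and all 3 CpGs read in every sample were higher. Zfp560, a zinc finger gene, had 40.4% and 37.7% in iPSC against 0.654%, 3.80%, 2.05% and 2.15% in MEF. Lhx3, a homeobox factor of pituitary and motor neurons, had 27.4% and 22.4% in iPSC against 2.49%, 2.12%, 3.48% and 2.62% in MEF, with 6 of 6 CpGs higher. Its difference of 22.3 points was 19.8 without iPSC 1, and it was also under 20 with reads per CpG capped at 50 and with the floor taken out. Slc6a5, a glycine transporter, had 29.4% and 24.5% in iPSC against 1.97%, 0%, 1.74% and 1.10% in MEF, with 4 of 4 CpGs higher. In these 4 tiles no MEF sample was above 6.60%.

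Epha8, an ephrin receptor, had 33.7% and 33.9% in iPSC against 3.86%, 1.43%, 12.1% and 7.66% in MEF, and 8 of its 15 shared CpGs were higher. Cdc5l, a splicing factor whose tile also holds the start of B230354K17Rik, had 28.7% and 25.1% in iPSC against 2.93%, 0.503%, 2.76% and 2.09% in MEF, with 7 of 13 shared CpGs higher. With reads per CpG capped at 50 its difference was 7.62 points, against 24.8 uncapped. Ppp1r26, a protein phosphatase regulator, had 40.7% and 40.1% in iPSC against 2.16%, 0.296%, 0% and 3.64% in MEF, but no CpG of its tile was read in all 6 samples. Rps7, a ribosomal protein, had 67.3% and 50.2% in iPSC against 8.17%, 3.42%, 50.2% and 49.2% in MEF. Its groups overlapped, its library-matched difference was 9.05 points, and it was not called there, nor without any 1 of iPSC 1, iPSC 2, MEF 1 or MEF 2.

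The same promoter tiles were read in male cells. Of 25 lower promoter tiles read in both male ESC and male MEF, 18 were at least 20 points lower in male ESC, and 5 were within 10 points. Of 30 higher promoter tiles, 8 were at least 20 points higher in male ESC and 14 were within 10 points. By the same 20-point measure, 65.4% of the 7013 lower and 72.9% of the 863 higher tiles read in all 18 samples went the same way in male ESC. Of all 46941 tiles tested in both comparisons, 16.1% were called lower and 4.08% higher in male ESC. Those calls also need an adjusted p under 0.05, so they are not a like background for the 20-point shares. The share of all tiles by the 20-point measure alone was not taken. Shares over promoter tiles of like MEF level were not taken. Slc6a5 had 48.6% and 51.9% in male ESC against 1.2% and 5.4% in male MEF. Lhx3 had 19.3% and 24.3% in male ESC against 1.5% and 2.2% in male MEF. By contrast, Cdc5l had 1.1% and 1.4% in male ESC, and Ppp1r26 1.5% and 4.5%.

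Sequence words in the promoters are given as a description only. CACGTG, the E-box read by factors such as MAX and equal on both strands, was in the promoters of 9 of the 28 lower tiles (32.1%), 4 of the 33 higher tiles (12.1%) and 11.2% of all 4860 promoter tiles, and in 7.15% of all 32851 promoter sequences. Promoters that share a tile were counted once. The promoters of Gm26567 and Gm26611, both in the higher tiles that hold CACGTG, are much alike in sequence. GCGGGA, a core of E2F sites, searched on both strands (TCCCGC on the other), was in 18 of the 28 (64.3%), 14 of the 33 (42.4%), 50.4% of all promoter tiles and 19.98% of all sequences. Neither word lies within the other. In the printed sequences CACGTG starts at base 28 of Mael, 222 of Ddx4 and 158 of Slc25a31, and neither word was found in Tex101, Traip or Lhx3.

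The tiles with the largest differences are given by a fixed rule. It asks for at least 100 reads in every sample, groups apart, a call also against the library-matched MEF, and spacing along the genome. None of the tiles named by it held a placed promoter, but many promoters could not be placed, so these tiles may still hold one. The largest loss was in chr5:93371001-93372000, with 4.18% and 5.60% in iPSC against 92.8%, 90.6%, 92.7% and 93.7% in MEF. All 14 CpGs read there in every sample were lower. The tile chr10:80069001-80070000 had 8.84% and 8.60% in iPSC against 94.4%, 93.2%, 88.8% and 93.3% in MEF. The tile chr7:4981001-4982000, whose centre lies 8.55 kb downstream of the start of Zfp784, had 10.2% and 9.67% in iPSC against 91.7%, 92.1%, 93.2% and 95.6% in MEF, with 12 of 12 CpGs lower. The tile chr6:48547001-48548000, 4.51 kb upstream of the start of Zfp775, had 12.8% and 18.7% in iPSC against 97.8%, 99.4%, 97.1% and 98.1% in MEF, with 13 of 13 lower. The remaining pair named by the rule, chr5:123821001-123822000 and chr4:40174001-40175000, had differences of -81.0 and -78.2 points. All 6 tiles were at 30.9% or less in male ESC and at 84.2% or more in male MEF.

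The largest gain was in chr2:31195001-31196000, with 73.2% and 75.5% in iPSC against 6.74%, 4.32%, 7.45% and 8.79% in MEF, and 7 of 7 CpGs higher. The tile chr11:79619001-79620000 had 68.2% and 72.0% in iPSC against 7.03%, 4.88%, 8.53% and 5.38% in MEF, with 5 of 5 CpGs higher. The tile chr9:121799001-121800000 had 82.4% and 72.9% in iPSC against 11.1%, 9.02%, 15.8% and 21.4% in MEF. The other 3, at chr8:18740001-18741000, chr9:102448001-102449000 and chr7:143694001-143695000, had differences of 62.9, 62.4 and 62.3 points. In male ESC all 6 were at 75 to 94.6%, and in male MEF at 2.9 to 51.5%. The nearest placed promoters were 32.6 kb or more from these 6 tiles.

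Loss was frequent in tiles whose CpG spacing recurs many times in the genome. Runs of 8 consecutive CpGs within 300 bases were compared by their spacing, in either direction. A spacing found at 20 or more places marks sequence present in many copies, as transposons are, without naming it. Such tiles numbered 4791, of which 3194 (66.7%) were lower and 0 higher, against 24.3% and 3.58% of all tiles. Limma on log2 ratios also called 0 higher, and at an unadjusted p under 0.05 the quasi-binomial model had 12 with a positive difference. They were 8.56% of tested tiles and 23.5% of lower tiles. Of the 4791 tiles, 4605 had 80% or more in MEF, where a gain of 20 points has almost no room. Among all 22818 tiles of that MEF level 0 were higher too, so the 0 says nothing about recurring spacing. Among tiles of 80% or more in MEF, the median iPSC level was 43.9% where the spacing recurred at 20 or more places, 68.7% where it was found at 2 to 19 places, 66.8% where it was found at 1 place and 73.4% where no run of 8 CpGs was read. The shares of these tiles that were lower were 67.2%, 48.8%, 53.6% and 32.5%, so loss was no more frequent at 2 to 19 places than at 1. Reads from near-identical copies can be placed at the wrong copy, so tiles of 1 family are not independent values, and their small spread was not tested for this.

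Tiles that shared at least 5 recurring spacings were joined into families, of which 5 had 20 tiles or more. Family 1 held 1429 tiles on all 19 autosomes. Its median level was 23.6% in iPSC (10th to 90th percentile of tiles, 19.2 to 29.3%) against 87.9% in MEF (85.1 to 90.4%), and 1428 of its tiles were lower. Its commonest spacing, found in 71.0% of its tiles, had gaps of 3, 7, 13, 4, 21, 12 and 45 bases between CpGs. Family 2 held 1137 tiles, with a like level to family 1 in MEF and a higher level than family 1 in iPSC: 71.5% in iPSC (68.1 to 74.2%) against 89.0% in MEF (87.2 to 90.6%), with 16.3% of tiles lower. Its commonest spacing, in 87.5% of tiles, had gaps of 24, 132, 7, 7, 5, 4 and 29 bases. Thus families 1 and 2 had 23.6% and 71.5% in iPSC, against 87.9% and 89.0% in MEF.

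Family 3, with 402 tiles, had 44.1% in iPSC against 85.7% in MEF, and 99.3% were lower. Family 4, with 186 tiles, had 38.0% in iPSC against 83.2% in MEF, and 98.4% were lower. Family 5, with 54 tiles, had 0 called tiles by the quasi-binomial model and by limma, and 22 were lower at an unadjusted p under 0.05, with sample medians of 69.9% and 66.8% in iPSC against 85.3%, 85.8%, 66.3% and 70.2% in MEF. In that family MEF 1 and 2 were above iPSC, and the library-matched MEF were not apart from it. The 5 families together held 2195 lower tiles, 16.2% of all lower tiles.

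**Figure D4:**
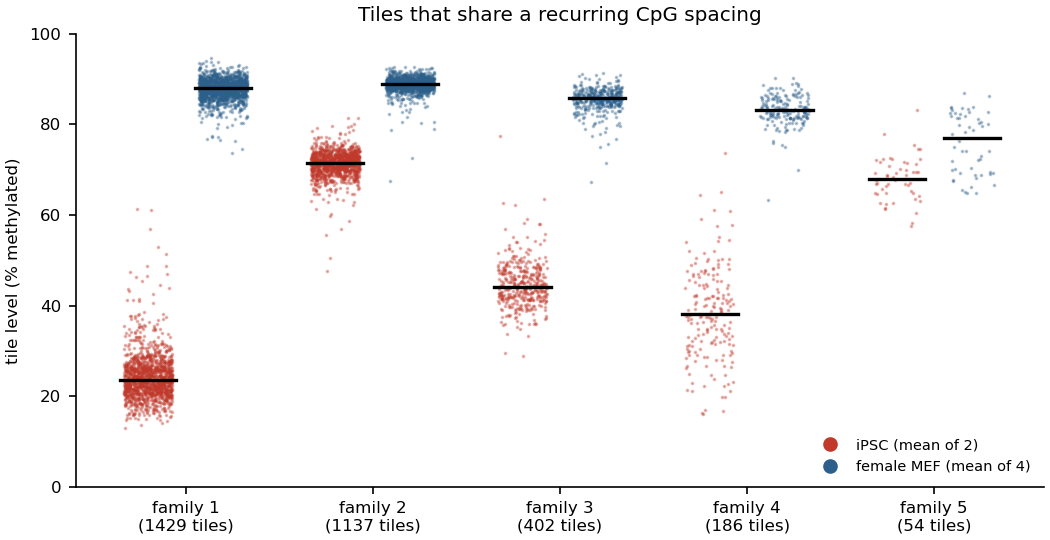
Level (%) of each tile of the 5 families with a recurring CpG spacing, as the mean of the 2 iPSC samples (left in each pair) and of the 4 MEF samples, with black bars at the medians. Family 1 lies near 23.6% in iPSC and 87.9% in MEF, and family 2 near 71.5% and 89.0%.

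The families were also read in the other samples. Family 1 had sample medians of 24.1% and 23.5% in iPSC, 23.4 to 24.1% in female ESC and 37.4% and 37.3% in male ESC, against 84.1 and 84.5% in SSEA1+ cells, 85.8 and 85.9% in SSEA1- cells, 87.6 to 88.3% over the female MEF, and 89.2% and 87.3% in male MEF. SSEA1 is a surface antigen of mouse pluripotent cells, by which cells were sorted during reprogramming. Family 2 had 71.1% and 71.6% in iPSC and 69.8% and 69.8% in male ESC, against 91.8% and 89.6% in male MEF. Families 3 and 4 had 46.6% and 42.4%, and 46.0% and 46.8%, in male ESC. Family 5 differed most between iPSC and ESC, with 69.9% and 66.8% in iPSC, 24.6 to 29.4% in female ESC and 40.9% and 40.6% in male ESC.

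CpG number went with loss also among tiles where no spacing was found at 20 or more places. Among tiles of 80% or more in MEF, 34.7% of those with 3 to 9 CpGs read in any of the 18 samples were lower, 59.3% of those with 10 to 29 and 79.2% of those with 30 to 59. Without the tiles whose spacing recurs at 20 or more places, the shares were 33.5% of 15489, 50.3% of 2700 and 95.8% of 24 tiles. The median iPSC levels of these 3 classes were 73.1%, 68.1% and 29.9%. No run of 8 CpGs was read in 14853 tiles of 80% or more in MEF. Repeats could not be set apart there, so tiles with few CpGs may still hold them. The 116 tiles with 30 or more CpGs in every sample had a mean level of 10.1% and 9.60% in iPSC against 14.5%, 14.2%, 15.2% and 15.3% in MEF (difference -4.96 points, exact permutation test, 2-sided p = 0.0667, the smallest possible here). Of the 116, 18 were lower and 1 higher, and all 18 had a spacing that recurs at 20 or more places. The median tile went the other way, with 3.50% in iPSC and 0.9% in MEF and a median difference of 2.21 points. That difference is no larger than the one between the library floors given above, 3.39% and 3.62% in iPSC against 0 to 0.794% in MEF. The mean difference was 4.69 points over the 7 dense tiles at a minimum of 10 reads, -8.57 over 232 at a minimum of 3, -32.4 over 12 on CpGs read in all 6 samples, and -8.35 over the 1250 tiles of 20 or more CpGs. The 4 dense losses named by the rule, on chromosomes 4, 12, 5 and 6, all had spacings that recur at 669 or more places. They had 33.1 to 39.6% in iPSC and 85.2 to 86.6% in MEF on average. The dense gain in chr13:99125001-99126000 had 30.3% and 20.7% in iPSC against 0.778%, 0.315%, 3.01% and 6.17% in MEF, a difference of 22.9 points that was 14.4 with reads capped and 18.1 without iPSC 1.

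Male ESC and male MEF gave a comparison with separate libraries. Of 68762 autosomal tiles, 9913 (14.4%) were lower and 3179 (4.62%) higher in male ESC. These counts were 3488 and 744 by limma, 4963 and 1055 without male ESC 1, and 6457 and 1885 at a minimum of 10 reads. In the 46941 tiles tested in both comparisons these shares were 16.1% and 4.08%. Of 11237 tiles lower in iPSC and tested in both, 6090 (54.2%) were lower in male ESC and 6 were higher. Of 1522 tiles higher in iPSC, 1028 (67.5%) were higher in male ESC and 3 were lower. Of 34182 tiles not called in iPSC, 4.23% were lower and 2.58% higher in male ESC. These sets were not matched in starting level. Over all 55967 tested tiles, 0 of the 18527 under 20% in female MEF were lower in iPSC, where a loss of 20 points has almost no room. Of the lower tiles, 71.3% had 80% or more in female MEF. The shared tiles are 80.8% of the 7538 male losses and 53.7% of the 1915 male gains among the tiles tested in both. The median difference, male ESC minus male MEF, was -25.5 points at tiles lower in iPSC and 34.1 points at tiles higher in iPSC. Whether effects differ between the sexes was not tested.

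Tiles chosen on iPSC and female MEF were followed in all 18 samples where all could be read, at 7013 lower and 863 higher tiles. At the lower tiles the sample medians were 38.0% and 36.5% in iPSC, 48.6% and 49.0% in male ESC, 82.8% and 80.7% in SSEA1+ cells, 84.4% and 84.4% in SSEA1- cells, and 88.0% and 86.7% in male MEF. At the higher tiles they were 61.5% and 58.2% in iPSC, 71.8% and 74.0% in male ESC, 28.0% and 21.6% in SSEA1+ cells, 16.3% and 16.6% in SSEA1- cells, and 24.9% and 26.8% in male MEF. In the female ESC samples the medians were 29.96 to 31.1% at the lower tiles and 37.1 to 38.5% at the higher tiles. Among the lower tiles, 65.4% were at least 20 points below male MEF in male ESC, and 94.9% in female ESC. Among the higher tiles, 72.9% were at least 20 points above male MEF in male ESC, and 21.0% in female ESC.

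**Figure D5:**
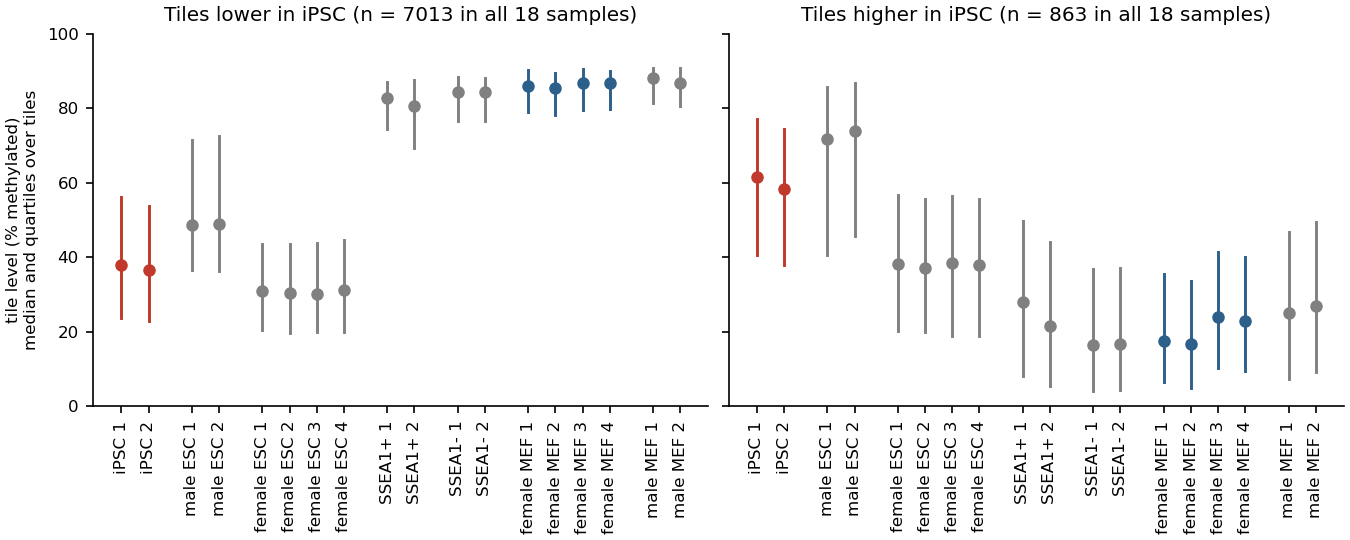
Median level (%, points) and quartiles (lines) of the tiles lower in iPSC (left) and higher in iPSC (right) in each of the 18 samples, with the samples that chose the tiles in red (iPSC) and blue (female MEF). The SSEA1+ samples, at 82.8% and 80.7% for lower tiles, lie near MEF, and the male ESC, at 71.8% and 74.0% for higher tiles, lie above iPSC.

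The iPSC samples differed from each other at few tiles. They were 20 points or more apart at 1.30% of all tiles, with iPSC 1 the higher at 500 and iPSC 2 the higher at 230. At lower tiles the median gap between them was 4.43 points, and at higher tiles 4.14 points.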

How the data were processed

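RRBS was run on genomic DNA of 18 mouse samples, grouped by the labels. For each strand of a CpG, the authors deposited the methylated read count, the total read count and a score, which was left aside. The submitters' processing notes name mm9, and positions are counted from 1. The aligner and caller were not given in the sources used here. Base differences between strains and the reference, and reads of repeated sequence, could alter such counts.

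Each tile was fitted with a quasi-binomial logistic model (a mean per group, iPSC and female MEF only). The dispersion was moderated by an empirical Bayes step equal to limma's squeezeVar, with the prior set by tiles of 10 to 90% level and the dispersion at least 1. Benjamini-Hochberg adjustment of the F tests covered the tiles of autosomes and X. On simulated counts for 58492 tiles, the iPSC comparison recovered 77% and 97% of losses of 25 and 40 points, and 95% and 100% of such gains, with 0 false calls. On 71089 tiles the male comparison recovered 27% and 72% of losses, and 71% and 95% of gains, with 9 false calls. Lower calls of the male comparison are thus incomplete. The simulated counts kept the real read totals, with the same spread for every tile and sample, taken from the median fitted dispersion. They held no difference between library kinds, so rates of recovery and of false calls in the real libraries were not measured. Single values were compared by exact permutation tests.

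Promoters were placed by at least 8 matched CpGs, 0 unmatched ones and a margin of 3 over any other place. Of 7151 neighbouring pairs, 1 was in another order than in the table. The members and lists were chosen with earlier results of these data known. The placing of promoters, and the families by spacing, were chosen after seeing these files. Named tiles are the 6 largest differences per direction (4 among tiles of 30 or more CpGs) and the 2 longest runs, on the terms given above, with at most 2 per chromosome. The labels do not say whether replicate numbers pair the samples. The deviations of iPSC and MEF samples from their group means correlated at -0.029 to 0.029. With 2 iPSC samples these values are of equal size and opposite sign by construction, so they cannot decide it.

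Alternatives were the library-matched MEF, a 10-read or 3-read minimum, limma (log2 ratios, prior count 1), a replicate block, a cap of 50 reads at each CpG, only CpGs read in all 6 samples, limits of 10 or 40 points, a limit of 20 CpGs for dense tiles, an autosomal mean weighted by reads or taken without requiring shared CpGs, and each sample left out in turn. Chosen after seeing the data were the own tiles of the library-matched samples, a correction for the floor of each library, the library-matched MEF with only shared CpGs, and 8 shared spacings for families. The software was R 4.3.3, limma 3.58.1, Python 3.11.15, numba 0.67.0, scipy 1.17.1, pandas 2.3.3, numpy 2.4.6 and matplotlib 3.10.9.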

Additional observations from a re-analysis of the deposited data

Results flagged for a closer look

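In 3 of 80 values searched, 1 sample of a group stood apart by Dixon's ratio (its gap to the nearest sample over the range of the group), which chance gives in about 1 in 20 groups. At the promoter tile of Tet3 and B230319C09Rik, higher in iPSC, MEF 3 had 27.9% against 1.23%, 0.192% and 0% in the other MEF samples (ratio 0.956). At the promoter tile of Zglp1, lower in iPSC, MEF 2 had 98.0% against 84.0 to 85.9% in the others (ratio 0.863). At chr8:18740001-18741000, higher in iPSC, MEF 2 had 8.11% against 10.2 to 10.6% in the others (ratio 0.844). In all 3 tiles both iPSC samples lay beyond every MEF sample. At the tile of Tet3 and B230319C09Rik, however, none of the 3 CpGs read in all 6 samples was higher in both iPSC samples than in every MEF sample. The call of that tile was lost with either iPSC sample left out.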

How the results depend on the processing

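The counts of 13576 lower and 2002 higher tiles changed to 6057 and 913 at a minimum of 10 reads (29721 tiles tested), to 23110 and 3632 at 10 points, to 5493 and 561 at 40 points, and to 24563 and 3405 over the own tiles of the library-matched samples (93635 tested). On the same tiles the library-matched MEF gave 14314 and 1809. Each sample left out in turn gave 12722 to 13984 lower and 1703 to 2098 higher tiles. The difference of the dense tiles (-4.96 points) reversed to 4.69 at a minimum of 10 reads (7 tiles left), and was -8.57 at a minimum of 3, -32.4 on CpGs read in all 6 samples (12 tiles) and -8.35 for tiles of 20 or more CpGs. The autosomal mean difference was -5.77 points over each sample's own CpGs (exact permutation p = 0.333), against -11.3 over shared CpGs. In male ESC against male MEF, limma gave 3488 lower and 744 higher, and a minimum of 10 reads 6457 and 1885. Leaving out 1 male sample gave 4963 to 9805 lower and 1055 to 3453 higher, lowest without male ESC 1 for both. The replicate block gave 13285 lower and 2046 higher tiles, and whether the numbers pair samples is not known. Of 270 named-tile alternatives, 268 kept their direction and side of the threshold, and 2 did not: chr13:99125001-99126000 had 14.4 points with reads capped at 50 and 18.1 without iPSC 1. Of 924 alternatives of promoter tiles, 852 kept their call, 71 lost it, and 1 reversed (Gm35510, to 3.87 points on CpGs read in all 6 samples). Linking by 8 shared spacings gave 100%, 14.5%, 99.7%, 98.5% and 0% lower tiles in families 1 to 5. The causes of these changes were not tested. Depth limits precision most in MEF 2, with a median of 74 reads per tile.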
